A study of Homo sapiens with 6 samples.

Results

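SOAT1 and 9 further genes of cholesterol ester handling (SOAT2, LCAT, NCEH1, LIPA, NPC1, NPC2, STARD3, OSBP and SCARB1) were followed by name through the deposited expression table, 10 genes of the 33707 it lists. SOAT1 was taken up because its transcript fell in the contrast described here, and the other 9 were added for what they do, with earlier results of the same libraries known. Their values are therefore given as a description, and no test is used to support them. All 10 were in the table under these symbols. A filter that asked for a 6-library mean of 1 RPKM or more was passed by 8 of them; SOAT2 and LCAT lay under it. RPKM scales the reads of a gene by its length and by the library total. Levels of different genes are thus compared per length, and their order depends on the length deposited for each gene. The isoforms the cells make were not measured.

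The transcripts were measured in Huh7, an established line from a human liver cancer, on day 2. A set of 3 libraries came from cells given mimics-NC, a negative control for a synthetic microRNA, and another 3 from cells given miR-361-3p mimics. Both reagents were designed by RiboBio and delivered with a lipid transfection reagent, so by the protocol the control cells were transfected too. The genotype tag reads WT for the control group and miR-361-3p mimics for the other. The treatment tag of the control group names wild type Huh7 cells with no reagent, while the titles name mimics-NC. Which is right is not known, so the labels do not settle whether the control cells were transfected. The cell line tag of mimic replicate 3 reads Huh8, while its title reads Huh7; this library was kept in its group. The labels do not say whether replicates were separate cultures, so every p-value here measures only the spread between these libraries. In RNA from whole cultures, fewer cells that express a gene and less of its RNA per cell cannot be told apart.

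Cells store surplus cholesterol by linking it to a fatty acid, and the ester collects in the core of lipid droplets or of secreted lipoproteins. SOAT1 and SOAT2 make this ester in the endoplasmic reticulum, while LCAT makes it in plasma on high-density lipoprotein. Esters are split again by NCEH1 at the endoplasmic reticulum and by the acid lipase LIPA in lysosomes, and the freed sterol leaves the lysosome through NPC2 and NPC1. A microRNA guides the silencing complex to transcripts that pair with its seed, a short stretch near its 5′ end.

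The seed and its matches are shown first, because they mark how the members differ in sequence. The mature miR-361-3p has 23 bases and lies on the minus strand of chromosome X at chrX:85903641-85903663 (RefSeq, GRCh38.p14), and its seed, bases 2 to 8, is in capitals. The mimic's own sequence was not given in the sources used here.
miR-361-3p: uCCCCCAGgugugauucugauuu
The matching letters in a transcript are CTGGGGGA (8mer), CTGGGGG (7mer-m8), TGGGGGA (7mer-A1) and TGGGGG (6mer), each counted once as the longest that applies, on the transcript strand only. They were looked for in 1 coding transcript per gene of GENCODE v29 (GRCh38). SOAT1 held only 6mers, at positions 221 and 3232 of a 3′ UTR of 5039 bases. The whole stretches printed for them lie at chr1:179353844-179353869 and chr1:179356855-179356880 on the plus strand.
SOAT1 first 6mer: tttttttgtggggctgggTGGGGGga
SOAT1 second 6mer: tttttttttttttagagaTGGGGGgg
An 8mer lay in the 3′ UTR of OSBP, within chr11:59574878-59574903 on the minus strand, and of STARD3, within chr17:39663413-39663438 on the plus strand. SCARB1 held a 7mer-m8 within chr12:124777754-124777779 on the minus strand. These positions are those of the whole printed stretch. Each is printed as it reads in the transcript, with the match in capitals.
OSBP 8mer: tcagccagcgtgggtcCTGGGGGAaa
STARD3 8mer: ctcctcccagggcctcCTGGGGGAcc
SCARB1 7mer-m8: ggctgaggtgaagaggcCTGGGGGcc
NCEH1, with a 3′ UTR of 3226 bases, held none of the 4 kinds of match there or in its coding sequence. A match is a description of letters, not a binding site, and the absence of a match says only that these letters are not in the stretch searched.

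The libraries held 35020139 to 52977132 assigned reads. Over the 13158 genes tested, which are not independent of each other, Pearson's r of the log2 values was 0.9927 to 0.9947 within groups and 0.987 to 0.9896 between groups. Of 10 hepatocyte markers, 9 had a mean of at least 1 RPKM, and albumin stood at 52.4 ± 2.26 RPKM (mean ± SD, n = 3) with mimics-NC and 52.3 ± 1.73 with the mimics. TTR, the exception, ranged from 0.226 to 0.348 RPKM in the control libraries and from 0.394 to 0.781 in the mimic libraries, with the groups apart, and AFP was low at 0.99 to 1.31. Summed markers of fibroblasts or stellate cells lay at 1.44 to 2.53 RPKM in the control libraries and 1.06 to 1.53 in the mimic libraries. For endothelial cells the sums were 4.27 to 4.34 and 4.32 to 4.67, and for cholangiocytes 0.870 to 1.17 and 1.27 to 1.43. The immune sum of 35.7 to 38.4 against 35.4 to 38.4 RPKM came almost wholly from CD68, a lysosomal protein of macrophages. None of these markers was at 0 in all libraries, and their part in the results below was not tested.

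Among the enzymes that make the ester, SOAT1 fell to an RPKM below those of the lysosomal export genes NPC1 and NPC2. SOAT2 and LCAT were near the limit of detection in every library. SOAT1 lies at chr1:179293714-179358680 on the plus strand of GRCh38. It read 14.5, 14.0 and 15.3 RPKM in control replicates 1 to 3 and 5.35, 4.80 and 4.76 RPKM in mimic replicates 1 to 3. All 3 mimic libraries lay far below all 3 control libraries, and the replicates within each group lay close together. These levels rested on 4279, 5201 and 5090 reads in the control libraries and 1312, 1504 and 1492 reads in the mimic libraries. The mean with the mimics was 4.97 ± 0.329 RPKM against 14.6 ± 0.629 RPKM with mimics-NC (SD, n = 3 each), so the level dropped by 65.9% and the control mean was 2.93 times the mimic mean. On the log2(RPKM + 0.5) scale the change was -1.46 (SE 0.0565), the lowest of the 13158 genes tested. That rank depends on the added 0.5, since in mean RPKM RFPL3-AS1_2, on a mean of 4.0 reads, changed by -76.2%. In the order of levels within a library, SOAT1 stood above 76.8%, 76.4% and 78.0% of tested genes in the control libraries and above 51.3%, 48.2% and 48.3% in the mimic libraries.

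SOAT2, the isoform known from hepatocytes and intestine that supplies esters to lipoproteins (chr12:53103518-53124538), read 0.0696, 0.0554 and 0.0308 RPKM with mimics-NC and 0.0559, 0.0546 and 0.109 RPKM with the mimics. The groups overlapped, on 6, 6 and 3 reads against 4, 5 and 10 reads, so no difference was detectable at this depth. LCAT (chr16:67939750-67944131) read 0.262, 0.223 and 0.232 RPKM with mimics-NC and 0.196, 0.298 and 0.145 RPKM with the mimics. Its groups overlapped too, on 17 to 35 reads a library, and 336 bases of its exons are shared with SLC12A4 on the same strand. Neither gene was tested. Per length, SOAT1 was the most abundant of the 3 ester-forming enzymes in all 6 libraries.

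**Figure D1:**
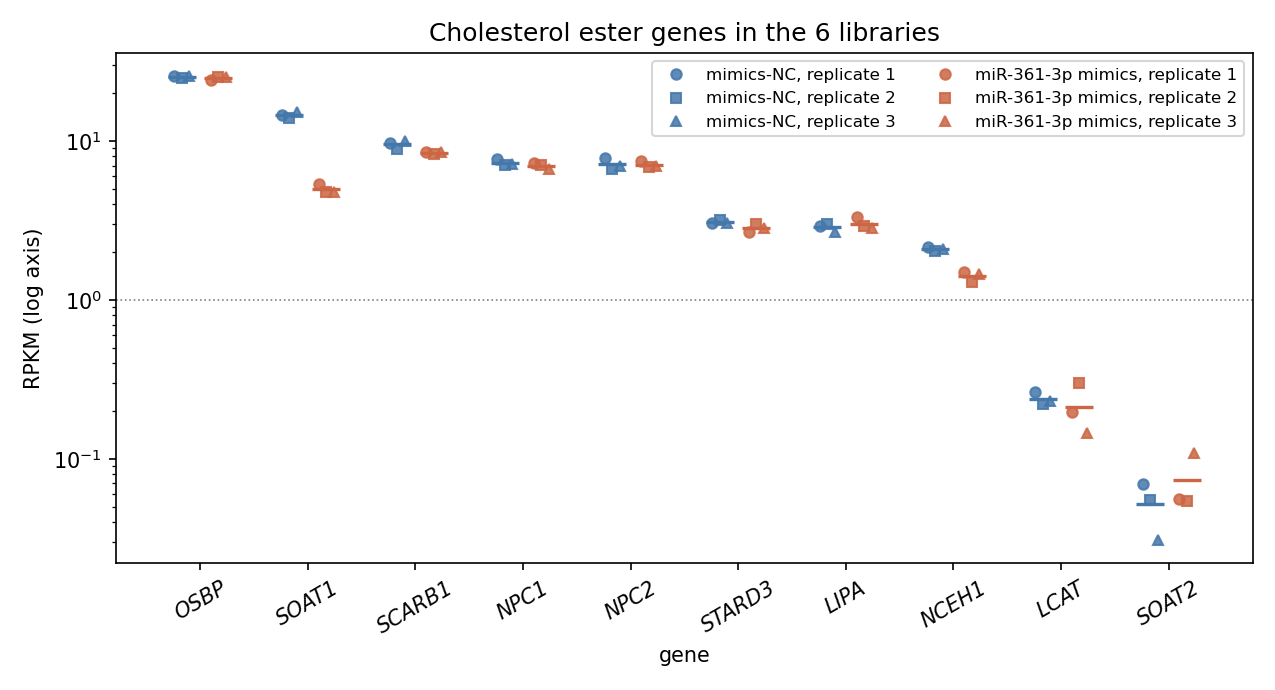
RPKM of the 10 genes (log axis) in each library, with 1 point per library, a bar at the mean of each group of 3 and a dotted line at the filter of 1 RPKM. The SOAT1 points with the mimics (4.76 to 5.35 RPKM) lie well below those with mimics-NC (14.0 to 15.3), those of NCEH1 lie lower by a smaller step, and SOAT2 and LCAT lie under the filter.

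Among the enzymes that split the ester, NCEH1 was lower with the mimics and LIPA was not. NCEH1, an ester hydrolase of the endoplasmic reticulum known from macrophages (chr3:172630249-172711218), read 2.16, 2.03 and 2.10 RPKM in the control libraries and 1.5, 1.29 and 1.46 RPKM in the mimic libraries. The groups did not overlap, and every mimic value lay below every control value. The means were 2.10 ± 0.0646 and 1.41 ± 0.111 RPKM (SD, n = 3 each), so the level dropped by 32.6%, and the log2 change was -0.44 (SE 0.0685), on 252 to 517 reads a library. Because 0.5 is added before the logarithm, the log2 change understates the fall of a gene at this level. LIPA, the lysosomal acid lipase (chr10:89213569-89414557), read 2.92, 2.99 and 2.67 RPKM in the control libraries and 3.31, 2.92 and 2.82 RPKM in the mimic libraries. Its groups overlapped, and its log2 change of 0.07 (SE 0.0707) was about the size of its error. LIPA shares 65 exon bases with IFIT2 and 135 with RP11-149I23.3 on the opposite strand, and both neighbours were under 1 RPKM.

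The genes that take freed cholesterol out of the lysosome differed little between the groups. NPC1, the membrane protein that passes cholesterol out of late endosomes and lysosomes (chr18:23506184-23586898), read 7.70, 7.12 and 7.16 RPKM with mimics-NC and 7.24, 7.05 and 6.71 RPKM with the mimics. NPC2, the soluble lysosomal protein that hands cholesterol to NPC1 (chr14:74476192-74494177), read 7.84, 6.63 and 7.0 RPKM with mimics-NC and 7.44, 6.85 and 6.99 RPKM with the mimics. Both genes overlapped between groups, with log2 changes of -0.06 (SE 0.0489) for NPC1 and -0.01 (SE 0.0664) for NPC2. STARD3, a late endosomal protein that transfers sterol at contacts with the endoplasmic reticulum (chr17:39637065-39663484), read 3.05, 3.19 and 3.06 RPKM with mimics-NC and 2.66, 2.99 and 2.84 RPKM with the mimics. Its 3 mimic values lay below its 3 control values, but by a small step next to their spread, and its log2 change was -0.11 (SE 0.0564). NPC1 shares 604 exon bases with C18orf8 and NPC2 shares 103 with ISCA2, each on the opposite strand, and how the counting treated strand is not given in the sources used here.

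OSBP, which exchanges cholesterol for a phosphoinositide between the endoplasmic reticulum and the Golgi (chr11:59574398-59616144), had the highest RPKM of the 10 in every library. It read 25.6, 24.8 and 25.5 RPKM in the control libraries and 24.1, 25.3 and 25.3 RPKM in the mimic libraries. The groups overlapped, with a log2 change of -0.03 (SE 0.0357). SCARB1, the receptor that takes up esters from high-density lipoprotein (chr12:124776856-124882668), read 9.76, 8.96 and 10.0 RPKM in the control libraries and 8.59, 8.25 and 8.53 RPKM in the mimic libraries. All 3 mimic values lay below the 3 control values, with means of 8.45 ± 0.181 against 9.58 ± 0.554 RPKM and a log2 change of -0.17 (SE 0.05). SCARB1 did not pass the threshold, an adjusted p under 0.05 over all genes tested, but did without control replicate 2 (log2 change -0.21), with a filter at 5 RPKM, with 2 other scalings of the libraries and with voom.

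Of the 8 genes tested, 2 were past the threshold and lower (SOAT1 and NCEH1), where 9.85% of all tested genes were, and 0 were past it and higher, where 11.7% of all tested genes were (21.5% in either direction). The SOAT1 call held in all 14 alternatives, with log2 changes of -1.56 to -1.39, and the NCEH1 call in the 13 in which it was tested, with -0.57 to -0.36; the filter at 5 RPKM left NCEH1 out. The groups were apart for 4 of the 8 (SOAT1, NCEH1, SCARB1 and STARD3), each with the mimics lower, while 19.1% of all tested genes had every mimic value lower and 22.3% had every mimic value higher (41.4% together). Of the 8 log2 changes 7 were below 0, and their median was -0.087, beside 0.012 over all genes tested. Since SOAT1 was chosen for its fall in these same libraries, nothing is read from its call or from these counts. The alternatives refit those libraries, so a call that held in them adds no separate support.

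**Figure D2:**
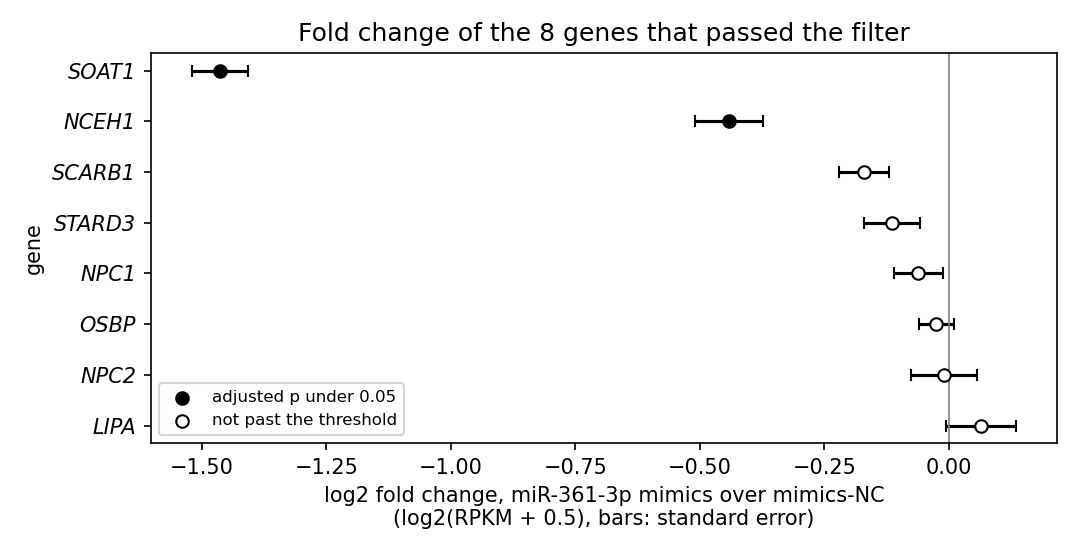
Log2 fold change (log2(RPKM + 0.5), miR-361-3p mimics over mimics-NC) of the 8 genes that passed the filter, with bars of 1 standard error; filled points have an adjusted p under 0.05 over all genes tested. SOAT1 stands at -1.46 and NCEH1 at -0.44, while the other 6 lie between -0.17 and 0.07.

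The fall of SOAT1 changed the order of RPKM among the 10 genes. With mimics-NC the order by mean RPKM was OSBP, SOAT1, SCARB1, NPC1, NPC2, STARD3, LIPA, NCEH1, LCAT and SOAT2, and only NPC1 and NPC2, neighbours in that order, overlapped over the 3 libraries. With the mimics it was OSBP, SCARB1, NPC2, NPC1, SOAT1, LIPA, STARD3, NCEH1, LCAT and SOAT2, where the pairs NPC2 and NPC1, and LIPA and STARD3, overlapped. By RPKM SOAT1 thus went from position 2 to position 5, below NPC1 and NPC2 in each mimic library. These positions depend on the gene lengths used. SCARB1 counted 7741 bases, while its transcript searched for matches has 127, 1530 and 954 bases of 5′ UTR, coding sequence and 3′ UTR. NPC2 counted 2749 bases, with 238, 456 and 341 in the same order, and SOAT1 7005, with 143, 1653 and 5039. The order under transcript lengths was not worked out. The sum of the other 9 genes was 59.4, 56.0 and 57.8 RPKM with mimics-NC and 55.0, 55.0 and 54.9 RPKM with the mimics. SOAT1 made up 19.6%, 20.0% and 20.9% of the sum of all 10 in the control libraries and 8.86%, 8.03% and 7.98% in the mimic libraries. The sums and shares depend on the same lengths.

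The transcripts of SOAT1, which forms the ester at the endoplasmic reticulum, and of NCEH1, which splits it there, both fell, and unequally. SOAT1 stood at 6.71, 6.90 and 7.28 times the level of NCEH1 in the control libraries and at 3.57, 3.73 and 3.27 times in the mimic libraries. The ratio of NCEH1 to LIPA, the splitting enzyme of the lysosome, was 0.739, 0.679 and 0.784 with mimics-NC and 0.452, 0.440 and 0.516 with the mimics. These ratios are within a library and are not altered by a scaling factor on the whole library.

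The 3 genes near SOAT1 on chromosome 1 that are given here were low or overlapped between the groups. ABL2, a tyrosine kinase whose gene lies 64030 bases before SOAT1 on the other strand, read 1.56, 1.72 and 1.77 RPKM with mimics-NC and 1.56, 1.75 and 1.63 RPKM with the mimics, with overlapping groups and a log2 change of -0.02 (limma, adjusted p = 0.838). Of the other neighbours given here, HNRNPA1P54 ranged from 0.0195 to 0.0559 RPKM, and COX5BP8 had reads in 1 control library only, at 0.120 RPKM.

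The genes whose 6 values were most like those of SOAT1 were found by the Euclidean distance between log2 values, each centred on the gene's mimics-NC mean, over the 6 libraries. The nearest was MYBL2, a transcription factor of proliferating cells, at a distance of 0.239 (Pearson's r 0.999). It read 134, 131 and 131 RPKM in the control libraries and 54.5, 50.7 and 50.5 RPKM in the mimic libraries, with replicate 1 the highest of the mimics for both genes. C2orf48 followed at 0.736 (r 0.982), then CCNE1, cyclin E1, which drives entry into S phase, at 0.824 (r 0.990). RFPL3-AS1_2 came next at 0.886 (r 0.891), on a mean of 4.0 reads, and AC007292.6 at 0.906 (r 0.963). All 5 share the 6 libraries and their 2 groups with SOAT1, so the likeness is a description.

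Around the 10 genes, 9 lists of related genes with 131 entries were chosen by function, of which 129 were in the table and 84 passed the filter. With the mimics 13 of the 84 rose (15.5%, beside 11.7% of all tested genes) and 10 fell (11.9%, beside 9.85%), with a median log2 change of -0.011 beside 0.012 for all genes tested. Median-of-ratios scaling turned the larger side, with 11 higher and 13 lower. Most changes were far smaller than that of SOAT1: the largest fall was -0.44 (INSIG1) and the largest rise 0.60 (G0S2). With any 1 library left out 10 of the 23 calls held, 7 higher and 3 lower, and those lost are named below with the library concerned. Beside the counts of each list below stand the same 11.7% higher and 9.85% lower of all tested genes. With so few genes in a list nothing is read from its counts, and most of them changed with some alternatives. Adjusted p-values in the next paragraphs are from limma over all 13158 genes.

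Of the acyltransferase relatives of SOAT1, 4 of 8 were tested, with 0 higher, 1 lower and a median log2 change of -0.160. MBOAT7, which acylates lysophosphatidylinositol, was lower with the mimics, 1.36 ± 0.118 against 1.75 ± 0.104 RPKM (log2 change -0.27, adjusted p = 0.0429). That call held only without mimic replicate 1 among the sets of 5 libraries (adjusted p up to 0.118). LPCAT3, a phospholipid acyltransferase, averaged 3.16 ± 0.225 RPKM in controls and 3.01 ± 0.158 with the mimics (log2 change -0.06, adjusted p = 0.556), and 3100 of its exon bases overlap EMG1 on the opposite strand. Of the other neutral lipid and ester hydrolases, 5 of 13 were tested and 0 passed in either direction, with a median of 0.129. CES2, a carboxylesterase, averaged 2.58 ± 0.228 RPKM in controls and 3.00 ± 0.0546 with the mimics (adjusted p = 0.0848), and passed without control replicate 1 and with voom (lowest adjusted p = 0.0295). LIPC, hepatic lipase, averaged 2.56 ± 0.170 and 2.84 ± 0.162 RPKM (adjusted p = 0.208).

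Of the genes that coat and build lipid droplets, where the ester is kept, 11 of 17 were tested, with 1 higher, 3 lower and a median of -0.037. PLIN2, the main droplet coat protein of hepatocytes, read 9.45, 9.17 and 9.23 RPKM with mimics-NC and 7.67, 8.02 and 7.94 RPKM with the mimics. The groups were apart and PLIN2 fell by 0.22 on the log2 scale (adjusted p = 0.00733). CIDEB, a droplet protein that helps to load lipoproteins in liver, fell from a mean of 14.1 ± 0.601 RPKM to 10.6 ± 0.830 RPKM (log2 change -0.39, adjusted p = 0.00547). CIDEB shares 1954 of its exon bases with NOP9 and 1276 with LTB4R2 on the opposite strand, so reads of these genes may be mixed. BSCL2, seipin, which shapes new droplets, fell by 0.32 on the log2 scale (2.10 ± 0.133 to 1.59 ± 0.125 RPKM, adjusted p = 0.024). It shares 1610 of its 3965 exon bases with HNRNPUL2-BSCL2 on the same strand, a gene with a mean of 79.6 RPKM. How reads were divided between them is not known, so the BSCL2 value may not show the seipin transcript alone. G0S2, an inhibitor of triglyceride lipolysis, rose to 5.00 ± 0.770 RPKM with the mimics from 3.13 ± 0.616 in controls (log2 change 0.60, adjusted p = 0.0275). The BSCL2 call was lost without control replicate 1 or 2 or mimic replicate 1 or 2 (adjusted p up to 0.0812), and the G0S2 call without mimic replicate 1 or 2 (up to 0.0734).

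Of the sterol transfer proteins, the relatives of OSBP and STARD3 and their partners, 14 of 23 were tested, with 2 higher, 2 lower and a median of 0.011. OSBPL9, an OSBP relative, rose by a small and even step, from 20.0, 19.6 and 20.2 RPKM to 23.0, 23.9 and 23.3 RPKM (log2 change 0.22, adjusted p = 0.00434). VAPA, the anchor that binds OSBP at the endoplasmic reticulum, averaged 12.3 ± 0.325 RPKM with the mimics and 10.8 ± 0.280 in controls (0.18, adjusted p = 0.0193). GRAMD1A, which moves cholesterol from the plasma membrane to the endoplasmic reticulum, averaged 3.20 ± 0.190 with the mimics and 3.99 ± 0.193 in controls (-0.28, adjusted p = 0.0177). OSBPL11, another relative, averaged 3.76 ± 0.185 and 4.48 ± 0.202 RPKM in the same order (-0.23, adjusted p = 0.0275). The OSBPL9 call held with any library left out. The others were lost without control replicate 2 or 3 or mimic replicate 1 or 2 for VAPA (adjusted p up to 0.0676), control replicate 1 or 3 for GRAMD1A (up to 0.0519), and control replicate 1 or 3 or mimic replicate 2 or 3 for OSBPL11 (up to 0.0854).

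Of the genes of lipoprotein uptake, 7 of 11 were tested, with 1 higher, 1 lower and a median of -0.070. SORT1, a sorting receptor of lipoprotein secretion, was lower at 5.14 ± 0.209 against 5.98 ± 0.179 RPKM (-0.20, adjusted p = 0.0245), a call lost without control replicate 1 or 2 or mimic replicate 2 or 3 (up to 0.082). Of the lysosomal lipid genes, 13 of 14 were tested, with 0 higher, 1 lower and a median of -0.021, the enzymes and membrane proteins that work beside LIPA, NPC1 and NPC2. SCARB2, a lysosomal membrane protein, averaged 39.3 ± 2.39 RPKM in controls and 34.3 ± 0.534 with the mimics (-0.19, adjusted p = 0.0292), and its call was lost without control replicate 3 or any of the mimic replicates (up to 0.0821). PSAP, the precursor of the saposins, averaged 96.7 ± 5.05 and 91.9 ± 3.14 RPKM (-0.07, adjusted p = 0.316).

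Of the genes of cholesterol efflux and plasma carriers, 10 of 14 were tested, with 3 higher, 0 lower and a median of 0.034. MTTP, which loads triglyceride and ester onto apolipoprotein B, read 30.2, 29.6 and 30.3 RPKM with mimics-NC and 35.0, 35.5 and 34.0 RPKM with the mimics. Its groups were apart, with a log2 change of 0.21 (adjusted p = 0.00524). PCTP, a phosphatidylcholine transfer protein, rose to 13.8 ± 0.621 from 11.5 ± 0.379 RPKM (0.25, adjusted p = 0.0101). ABCA5, a transporter of the efflux family, averaged 4.67 ± 0.0490 with the mimics against 4.07 ± 0.178 RPKM (0.18, adjusted p = 0.0349), a call that held only without control replicate 1 among the sets of 5 libraries (up to 0.105). Of the oxysterol, bile acid and LXR genes, 6 of 15 were tested, with 2 higher, 0 lower and a median of 0.017. NR1H2, the oxysterol receptor LXR beta, rose to 12.2 ± 0.451 from 10.1 ± 0.451 RPKM (0.27, adjusted p = 0.00903). NR1H4, the bile acid receptor FXR, averaged 22.8 ± 0.858 with the mimics and 20.3 ± 0.667 RPKM in controls (0.17, adjusted p = 0.0333); its call held only without mimic replicate 2 among the sets of 5 (up to 0.0903), and not with median-of-ratios scaling or quantile normalization.

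Of the genes that hold the sterol-sensing SREBP system in check or run it, all 14 were tested, with 4 higher, 2 lower and a median of 0.011. INSIG1, which retains the SREBP complex in the endoplasmic reticulum when sterol is plentiful, read 8.58, 7.91 and 7.76 RPKM with mimics-NC and 6.22, 5.65 and 5.61 RPKM with the mimics. Every mimic value lay below every control value, and INSIG1 fell by 0.44 on the log2 scale (adjusted p = 0.00286). ERLIN1 read 18.3, 18.3 and 18.5 RPKM with mimics-NC and 23.3, 23.1 and 23.4 RPKM with the mimics, with the groups apart, and rose by 0.33 (adjusted p = 0.000678). ERLIN2, its partner in the degradation of endoplasmic reticulum proteins, rose to 8.28 ± 0.132 from 6.85 ± 0.0960 RPKM (0.26, adjusted p = 0.00401). These 3 calls held with any library left out. SREBF2, the transcription factor of cholesterol synthesis, averaged 5.69 ± 0.344 with the mimics and 4.95 ± 0.141 RPKM in controls (0.18, adjusted p = 0.0498), and no set of 5 libraries kept its call (adjusted p up to 0.137). The SREBF2 call was also lost with median-of-ratios scaling and with a pseudocount of 1. The other 2 calls, named after their values were seen, were MBTPS1, the site-1 protease that cuts SREBP (0.17, adjusted p = 0.04), and the ubiquitin ligase RNF145 (-0.18, adjusted p = 0.0463). MBTPS1 was lost with any library left out (up to 0.112) and RNF145 with any but control replicate 3 (up to 0.129).

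**Figure D3:**
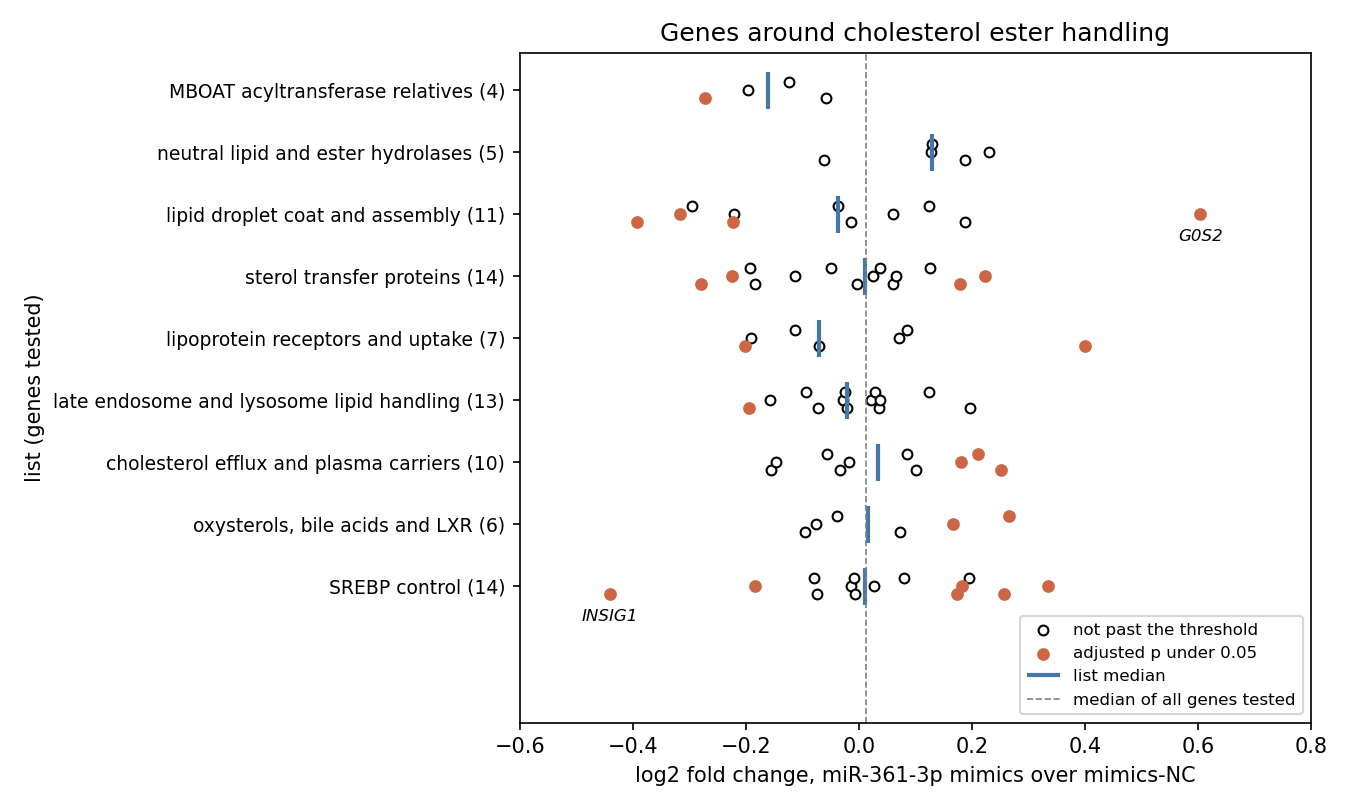
Log2 fold change of each tested gene in 9 lists around cholesterol ester handling, 1 point per gene, with a bar at each list's median and a dashed line at the median of all genes tested (0.012). Filled points have an adjusted p under 0.05; INSIG1 (-0.44) and G0S2 (0.60), the lowest and the highest, are named.

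In the transcript used, 4 held a 7mer or 8mer in the 3′ UTR (OSBP, STARD3, SCARB1 and SOAT2), and of these SOAT2 was not tested and the other 3 were not past the threshold. SOAT1 and NCEH1, the 2 that were, held neither a 7mer nor an 8mer in the 3′ UTR or the coding sequence of any of their 3 annotated coding transcripts. In the transcript used, the same held for 5657 (59.1%) of the tested protein-coding genes, so nothing is read from the lack of a match in these 2. OSBP, with its 8mer printed above and 2 further 7mer-m8 matches in its coding sequence, had a log2 change of -0.03, and STARD3, with an 8mer and 2 coding matches, had -0.11. A 7mer-m8 in the coding sequence was the match in NPC1, and LIPA held 1 in its 5′ UTR. In LCAT and NPC2 no match of 7 or more bases was found in the transcript used. Some other annotated transcripts of STARD3 and SCARB1 lack the 3′ UTR match, and another of NPC2 holds a coding match, so these depend on the isoform the cells make, which was not measured.

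Of 9571 tested protein-coding genes with a transcript, 23.5% held a 7mer or 8mer in the 3′ UTR, 5.2% an 8mer, and 24.6% a 7mer or 8mer in the coding sequence. Only 6.0% had a 3′ UTR at least as long as that of SOAT1. Of the 610 with a 3′ UTR of 4000 to 6000 bases, 290 (47.5%) held a 7mer or 8mer and 320 did not, and 70.0% held at least a 6mer. The longest unbroken run of pairing with any part of the microRNA was 8 bases in SOAT1 and in NCEH1, which 63.3% of tested genes reached.

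Across all tested protein-coding genes the median log2 change lay near 0 whatever the number of matches. It was 0.011 for the 7320 genes with no 7mer or 8mer in the 3′ UTR, 0.005 for the 1607 with 1, -0.002 for the 412 with 2 and 0.007 for the 232 with 3 or more. Among the 498 with an 8mer it was 0.005. The share past the threshold and lower was 11.4%, 11.5%, 9.0%, 8.2% and 10.2% in these classes. The share past it and higher was lowest with 2 matches (9.7%) and highest with 3 or more (13.4%). The classes also differed in median 3′ UTR length, from 807 bases with no match to 3809 with 3 or more. The part of this length in the shares was not tested. Genes with 2 or more 6mers and nothing longer, the class of SOAT1, numbered 307, with a median of 0.014. Of these, 32 were lower (10.4%) and 39 higher (12.7%). Of the 12 protein-coding genes with the largest falls, 4 held a 7mer or 8mer in the 3′ UTR and 0 held an 8mer. In the pathway lists 25 genes held a 7mer or 8mer there, with 1 lower and 3 higher, and 58 did not, with 9 lower and 10 higher. Beside them stand 11.3% lower and 12.6% higher of all 9571 genes, and with so few genes nothing is read from these counts.

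**Figure D4:**
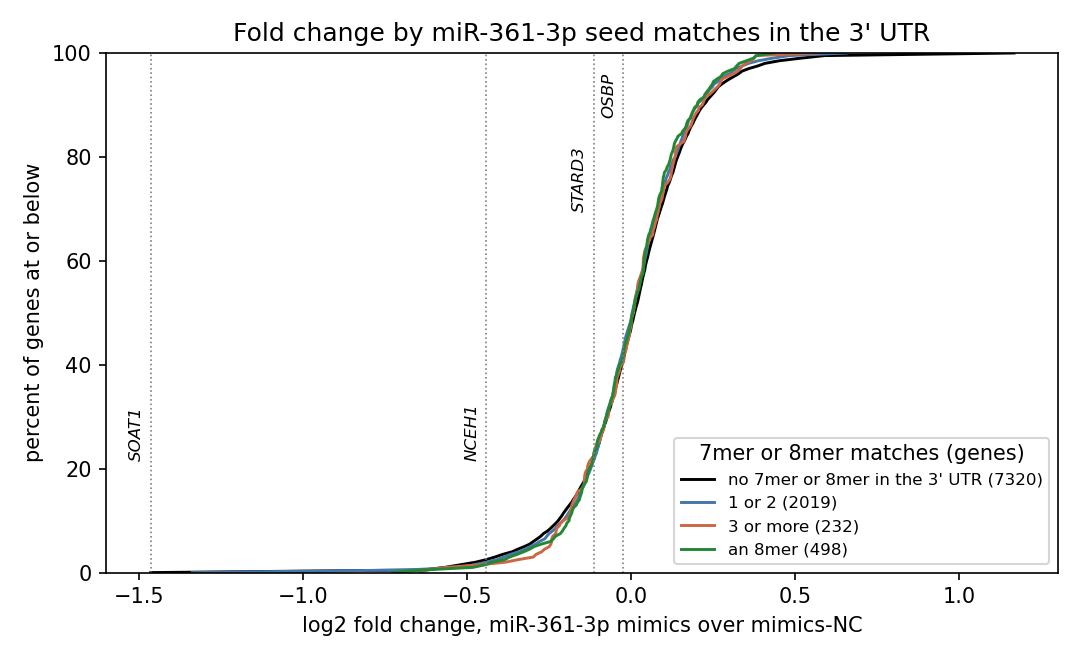
Cumulative percent of tested protein-coding genes at or below each log2 fold change, by 7mer and 8mer matches to the miR-361-3p seed in the 3′ UTR; the 8mer class overlaps the classes of 1 or 2 and of 3 or more. The 4 curves run close together, and dotted lines mark SOAT1 (-1.46) and NCEH1 (-0.44) without a 7mer or 8mer and STARD3 (-0.11) and OSBP (-0.03) with an 8mer.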

How the data were processed

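The authors deposited 1 table of RPKM for 33707 genes in 6 libraries, with positions on GRCh38 and a column of another unit, the length of each gene in bases. Trimmomatic 0.36, Subread 1.5.1 with featureCounts, and edgeR 3.12.1 were used, per the submitters' processing notes; which aligner, annotation release and strand setting were used is not given in the sources used here. Per the labels' protocols the library kit was stranded. RPKM times length gave whole reads within 0.01 for 100% of values, which gave the read numbers and library totals.

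Genes whose mean reached 1 RPKM were fitted as log2(RPKM + 0.5) with limma 3.58.1 (R 4.3.3; empirical Bayes, intensity trend, two-sided), with Benjamini-Hochberg adjustment over the 13158 genes and a threshold of 0.05; 0.5 draws fold changes of low genes toward 0. The fit was tested on simulated data. Alternatives were pseudocounts of 0.1 and 1, no filter, a filter at 5 RPKM, median-of-ratios scaling, quantile normalization, a replicate block, voom on the recovered reads, and each library left out.

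The members, lists and alternatives were chosen with earlier results of these data known. The text names all members, up to 4 called genes of each list with the largest absolute change (made up to 2 with the most abundant), the 2 nearest genes on each side of SOAT1 and the 5 most like it. CIDEA and CETP were not matched in the table. Of the genes named by this rule, 2 are not reported here. The transcript searched for seed matches was chosen by its APPRIS rank, then by a CCDS tag, then by length. No protein sequence was used here.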

Additional observations from a re-analysis of the deposited data

How the results depend on the processing

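Over the 14 alternatives 2 or 3 members were lower and 0 higher: SOAT1 in all, NCEH1 in the 13 that tested it and SCARB1 in 5, among them the filter at 5 RPKM, where NCEH1 was not tested. Without a filter, 870 genes rose and 846 fell, not 1539 and 1296, and of the pathway genes 8 rose and 3 fell, not 13 and 10. With 1 library left out, 895 to 1193 genes rose and 885 to 990 fell, and 7 to 11 pathway genes rose and 4 to 8 fell. The filter at 5 RPKM tested 43 pathway genes, not 84, and of these 10 were higher and 6 lower. With the replicate number as a block, 1034 genes rose and 942 fell, and 9 pathway genes rose and 6 fell; same-numbered libraries did not deviate together (r -0.0524, -0.0159 and 0.0235, the highest r of any pair being 0.121, between control replicate 1 and mimic replicate 2), so the numbers were not taken to pair the samples. Median-of-ratios scaling gave 1357 higher and 1452 lower genes, turning the larger count to the lower side, and voom gave 2065 and 1756. The cause of these shifts was not tested, though the unfiltered fit adjusts over 33707 genes and each fit without a library has 5. No alternative changed the sign of the SOAT1, NCEH1, SCARB1, STARD3 or NPC1 change. Counting limits SOAT2, on 3 to 10 reads a library, and LCAT, on 17 to 35.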
